A study of Mus musculus with 6 samples.

Results

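Peaks of accessible chromatin annotated to the genes of the Mediator complex, of RNA polymerase II (Pol II) and of the general transcription factors were analysed in skeletal muscle stem cells (MuSCs). A peak was taken when its annotated gene was protein-coding and had a symbol that starts with Med and a digit, with Polr2 or with Gtf2, or was Ercc2 or Ercc3. Of the 75412 peaks in the table, 74 met this rule, and they belonged to 54 of the 61 genes looked for. The 7 genes of these families without an annotated peak were Med20, Polr2i, Polr2l, Gtf2a1l, Gtf2e1, Gtf2f1 and Gtf2h1. The annotation names a single gene per peak, so a peak at a shared promoter can be given to the neighbour. For example, a peak over the start of Med29 (chr7:28392243-28393431) was given to Paf1. A gene without an annotated promoter peak is therefore not shown to lack one. The rule uses gene names only and no measured value.

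The values come from ATAC-seq, a method in which Tn5 transposase cuts and tags open DNA, on MuSCs taken directly from control mice and Taf4a sKO mice, with 3 libraries per group. The study asked how chromatin structure differs between control and Taf4a mutant MuSCs. Taf4a sKO mice carried 2 Taf4a alleles in which exons 11 to 12 are flanked by loxP sites, and all mice were on a C57BL/6 background. Taf4a sKO mice also carried the tamoxifen-inducible Cre under control of Pax7 and received tamoxifen when 8 to 20 weeks old. The paper describes controls as littermates with the same floxed alleles, with or without the Cre allele. It also lists wild type C57BL/6 mice, and the 3 control libraries are labelled WT. Which of these the 3 control libraries were, and whether controls were given tamoxifen, is not given in the sources used here. Recombination is restricted to cells that express Pax7, and MuSCs were sorted for integrin-α7 or a Pax7 reporter and against SCA1, CD45 and CD31. Nothing states whether each library came from 1 animal or from pooled animals, so p-values measure the spread between these libraries only.

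TAF4A is a subunit of TFIID, the general factor that recognises core promoters and nucleates the preinitiation complex. TFIIA and TFIIB join TFIID on the promoter, TFIIF brings Pol II, and TFIIE and TFIIH complete the complex, in which TFIIH opens DNA and phosphorylates the Pol II tail. Mediator connects activators bound at enhancers with Pol II through its tail, middle and head modules, and a separable kinase module holds it in check.

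The sequences of the 6 member peaks that passed the fold threshold used in the study (a mean over 10, with group means whose log2 ratio is over 1 or under -1) are shown first, because they had the largest differences among the 74 annotated peaks. Each is the 300 bases centred on the peak, on the plus strand of GRCm38 (the same assembly as mm10). The Med16 and Polr2a peaks are 243 and 263 bp wide, so their windows run past both peak edges. The CCAAT letters that open the Polr2a window lie outside the peak. Capitals mark matches on either strand to 7 motifs, which were AP-1 (TGANTCA), the E-box (CAGCTG), Runx (TGTGGT), Tead (CATTCC), the GC box (GGGCGG), the CCAAT box (CCAAT) and the TATA box (TATAAA). A lower case window therefore holds none of these letters. None of the 7 is contained in another.
Med9 intron peak, chr11:59953212-59953511: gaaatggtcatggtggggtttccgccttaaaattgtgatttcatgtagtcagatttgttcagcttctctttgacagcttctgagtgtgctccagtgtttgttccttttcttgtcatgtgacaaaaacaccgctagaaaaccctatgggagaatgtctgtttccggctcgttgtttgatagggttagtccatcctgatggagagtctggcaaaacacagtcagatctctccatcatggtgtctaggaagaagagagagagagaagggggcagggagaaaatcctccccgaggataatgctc
Gtf2ird1 upstream peak, chr5:134466367-134466666: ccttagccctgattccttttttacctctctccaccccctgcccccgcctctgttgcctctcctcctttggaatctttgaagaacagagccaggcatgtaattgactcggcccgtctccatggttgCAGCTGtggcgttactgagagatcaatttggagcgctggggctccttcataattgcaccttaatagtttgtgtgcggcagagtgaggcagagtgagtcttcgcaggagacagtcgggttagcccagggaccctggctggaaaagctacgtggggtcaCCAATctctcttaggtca
Med16 intron peak, chr10:79900951-79901250: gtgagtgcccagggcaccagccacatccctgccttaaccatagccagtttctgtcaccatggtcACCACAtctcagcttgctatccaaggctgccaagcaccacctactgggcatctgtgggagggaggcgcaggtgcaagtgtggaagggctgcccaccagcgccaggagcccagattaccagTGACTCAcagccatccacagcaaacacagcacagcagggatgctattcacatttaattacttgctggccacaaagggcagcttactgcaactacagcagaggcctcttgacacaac
Polr2e downstream peak, chr10:80033930-80034229: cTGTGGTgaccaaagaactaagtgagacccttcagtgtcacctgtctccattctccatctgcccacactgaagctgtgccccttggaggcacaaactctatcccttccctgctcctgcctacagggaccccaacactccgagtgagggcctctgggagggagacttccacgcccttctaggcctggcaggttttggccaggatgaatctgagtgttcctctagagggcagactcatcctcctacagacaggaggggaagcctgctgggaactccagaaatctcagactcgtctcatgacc
Gtf2a1 intron peak, chr12:91588254-91588553: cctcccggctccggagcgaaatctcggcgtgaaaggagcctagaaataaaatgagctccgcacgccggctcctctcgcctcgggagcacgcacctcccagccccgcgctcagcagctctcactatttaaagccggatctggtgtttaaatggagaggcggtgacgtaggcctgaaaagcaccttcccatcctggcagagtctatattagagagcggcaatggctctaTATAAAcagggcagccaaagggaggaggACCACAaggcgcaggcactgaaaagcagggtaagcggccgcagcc
Polr2a intron peak, chr11:69752727-69753026: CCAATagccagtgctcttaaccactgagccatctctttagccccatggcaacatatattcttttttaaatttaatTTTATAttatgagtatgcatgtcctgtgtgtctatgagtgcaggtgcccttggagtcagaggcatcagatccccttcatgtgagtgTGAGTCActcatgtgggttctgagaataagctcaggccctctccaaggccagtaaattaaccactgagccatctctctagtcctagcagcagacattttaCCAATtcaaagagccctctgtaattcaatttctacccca

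The Med9 window had no match, and the Gtf2a1 window had the TATA box and the Runx letters. Of the 24 member peaks away from promoters, 7 (29.2%) had the Runx letters in the 300 bases centred on them. This compares with 20.1% of the other peaks of all protein-coding genes. Windows of peaks narrower than 300 bp, down to 223 bp among these members, include flanking sequence. AP-1 letters were in 5 of 24 (20.8%) against 21.4%, E-box letters in 25% against 29.6%, Tead letters in 16.7% against 19%, TATA letters in 16.7% against 8.5%, CCAAT in 25% against 31.1% and GC box letters in 12.5% against 20.3%. Matches are a description of letters and not of bound factors. In the Polr2a window, much of the sequence is of a repeat class, since 66.5% of the peak was soft-masked in the reference, compared with 7.9% in the median member peak away from promoters.

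The targeted gene, which the table lists as Taf4, was examined first. The peak over exon 12 of Taf4 (chr2:179922849-179923263), one of the floxed exons, had 65, 78 and 137 in control and 44, 22 and 25 in Taf4a sKO libraries. All Taf4a sKO values lay under the control values (limma, log2 fold change -1.58 ± 0.30 (SE), adjusted p = 0.00034). The Taf4 promoter peak (chr2:179975752-179977530) had values of 2305, 1998 and 2375 in control and 2095, 2124 and 2104 in Taf4a sKO MuSCs, and the groups overlapped (adjusted p = 0.59, limma). Signal over exon 12 was thus lower but still present in each Taf4a sKO library. The fall was not restricted to the floxed exons. A peak over exon 7, outside them, had 253, 249 and 302 in control and 140, 145 and 165 in Taf4a sKO libraries (log2 fold change -0.83, adjusted p = 0.00014, limma), and another at chr2:179916955-179917641 was also called lower (log2 fold change -0.49, adjusted p = 0.027, limma). A peak 3331 bp from the start was called higher (log2 fold change 0.55, adjusted p = 0.003, limma).

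Values are read counts per peak that the authors scaled for depth and rounded. Their totals over all peaks were 37722015, 35226223 and 42803315 for control libraries, and 44311913, 41661725 and 41948821 for Taf4a sKO libraries. Differences were tested with limma on log2(value + 1) over the 75384 peaks with a mean above 10, with Benjamini-Hochberg adjustment, and a peak was called at an adjusted p under 0.05. All 74 member peaks passed the filter. Log2 fold changes are given as limma's estimate ± its standard error. A peak within 1000 bp of its gene's start in the deposited annotation was counted as a promoter peak, and all others as other peaks. A lower value can mean that fewer cells have an open site or that the site is less open in each cell, and these cannot be told apart in bulk libraries.

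Peaks of MuSC markers were present for 10 of 10 listed genes, with summed values of 15122, 12708 and 15619 in control and 14264, 13603 and 13605 in Taf4a sKO libraries, and the highest was Pax7, which was called lower, while Vcam1 was called higher. Markers of the other cell types that a muscle digest holds were read in the same way, from the peak nearest to each gene's start. Of 6 fibro-adipogenic genes, 5 had a peak, and their sum was 1929, 1669 and 2097 in control against 2683, 2490 and 2481 in Taf4a sKO libraries, with 3 peaks called higher (Lum, Dcn and Col1a1, the most abundant) and 2 lower (Pdgfra and Dpt), while no peak was annotated to Ly6a. Of 4 smooth muscle and pericyte genes, 3 had a peak, with sums of 2804, 2756 and 2985 against 3600, 3227 and 3386, and 2 were called higher (Acta2, the most abundant, and Myh11), with no peak at Rgs5. The 4 of 6 endothelial genes with a peak summed to 1514, 1312 and 1845 against 1993, 1992 and 1888, led by Tek, which was called higher, and Emcn and Tie1 had no peak. Of the 6 haematopoietic genes only Vav1 and Coro1a had a peak (3281, 3046 and 3562 against 3525, 3313 and 3160, led by Vav1), none was called, and the defining gene Ptprc had none. The 6 muscle fibre genes summed to 2860, 2607 and 3213 against 2833, 2395 and 2606 and were led by Myh1, with Myh2, Ttn and Acta1 called lower. What part such cells have in the differences described here was not tested.

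The 6 libraries did not lie at 1 level over the member peaks. Control 3 had the highest value in 32 of the 50 promoter peaks, and control 2 had the lowest in 34 of them. Relative to the mean of the 6 libraries, the median promoter peak stood at 0.988, 0.897 and 1.079 in controls and at 1.034, 1.000 and 1.000 in Taf4a sKO libraries. The spread among controls was thus wider than that among Taf4a sKO libraries. Without control 3 the number of member peaks called higher changed from 4 to 14, 11 of them at promoters (22% of the 50). It was 2 without control 1, and 1 without control 2 or without any single Taf4a sKO library. Without control 3, the share called higher among all coding promoters also went from 10% to 27.6%. That among all peaks went from 28% to 37.8%.

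**Figure D1:**
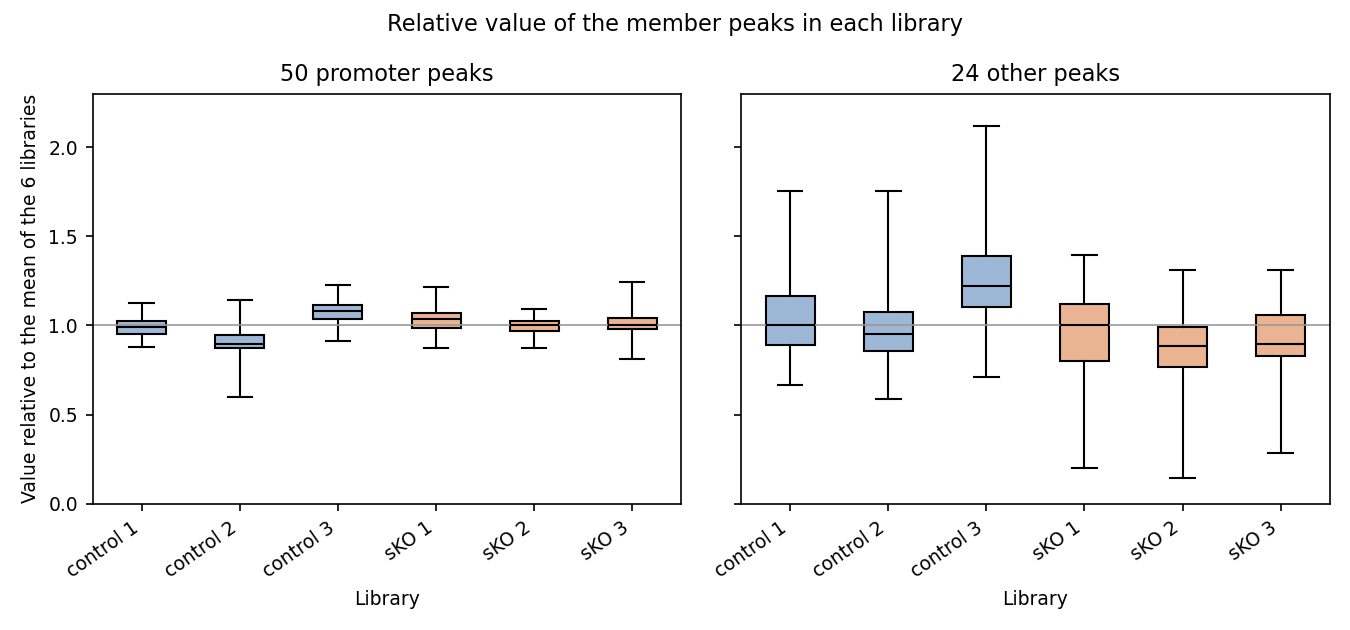
Value of each member peak divided by its mean over the 6 libraries, for 50 promoter peaks (left) and 24 other peaks (right). Boxes span the quartiles with the median as a line, whiskers reach the lowest and highest peak, and control libraries are blue and Taf4a sKO libraries orange. Control 2 is lowest (median 0.897) and control 3 highest (median 1.079) at promoters.

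Member promoters showed small differences, and the large ones were at peaks inside or beside the genes. Of the 50 promoter peaks, 1 was called higher (2%) and 2 lower (4%), against 10% and 5.67% of the 12049 promoter peaks of all protein-coding genes. Their log2 fold changes ranged from -0.37 to 0.31 with a median of 0.048, close to the 0.058 of all coding promoters. The member median was -0.037 without control 2, 0.114 without control 3 and 0.015 without Taf4a sKO 1, where that of all coding promoters was -0.004, 0.123 and 0.038. For 48 of the 50, the 95% confidence interval lay within a 1.5-fold change in either direction. The same held for 9936 of the 12049 promoter peaks of all protein-coding genes, so narrow intervals were usual at promoters. Of the 24 other peaks, 3 were called higher (12.5%) and 7 lower (29.2%), against 26% and 14% of the 11304 other peaks of coding genes. Their median was -0.18, against 0.075 for all of these. It was -0.049 without control 3 (0.142 for all of these), and between -0.240 and -0.142 without any of the other libraries.

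Of all peaks tested, 28% were called higher and 13.9% lower. By the fold threshold 1 of 24 other member peaks was gained and 5 were lost, against 5.34% gained and 4.59% lost among all other coding peaks and 7.02% and 5.36% of all peaks. No promoter peak of the family passed it, and among all coding promoters 0.805% were gained and 0.905% lost, so 0 of 50 is near that background. Without overlap between the groups, 9 of 50 member promoters were above control and 5 below (18.8% and 10.9% of all coding promoters), and 4 of 24 other peaks were above and 8 below (30.2% and 19.3%).

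**Figure D2:**
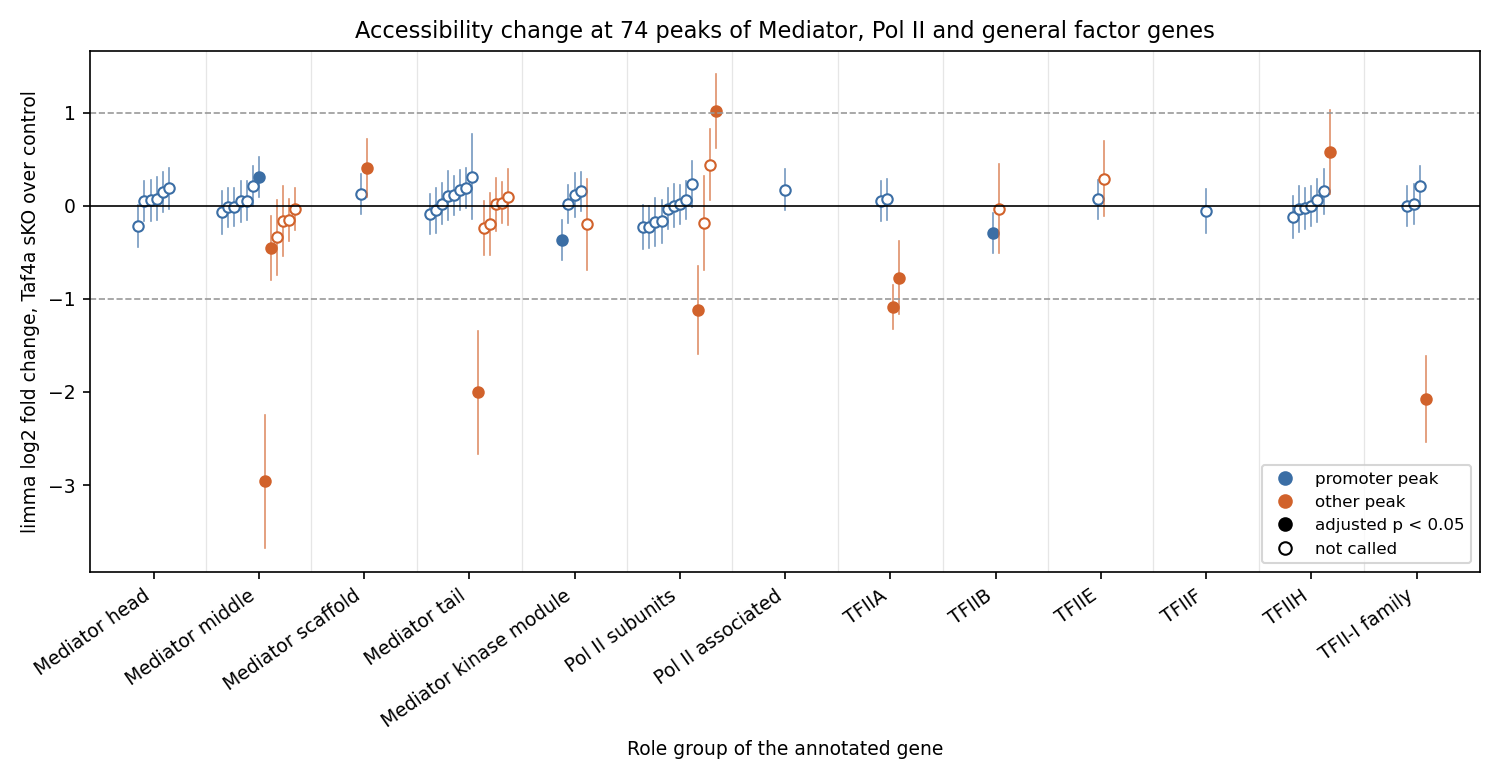
limma log2 fold change (Taf4a sKO over control) of the 74 member peaks by the role of their gene, with promoter peaks in blue, other peaks in orange and filled symbols for an adjusted p under 0.05. Bars are 95% confidence intervals and dashed lines mark log2 values of -1 and 1. Promoter peaks stay between -0.37 and 0.31, and the other peaks reach from -2.96 to 1.01.

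The split between directions depended on how the libraries were scaled. The deposited values put the median of all peaks at 0.105 on the log2 scale, and TMM factors moved it to -0.006. With TMM factors, 1 of 50 member promoters was called higher and 12 lower, against 9.94% and 22.5% of all coding promoters. The other member peaks gave 1 called higher and 10 lower, against 23.7% and 23.7%. Called lower with TMM factors but not as deposited were the promoters of Med17, Med21, Med25, Polr2a, Polr2c, Polr2h, Polr2j, Polr2k, Gtf2i and Ercc3 and other peaks of Med7, Med10 and Med29, which are named here because they were the ones called. The median member peak went from 0.014 as deposited to -0.098 with TMM factors.

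**Figure D3:**
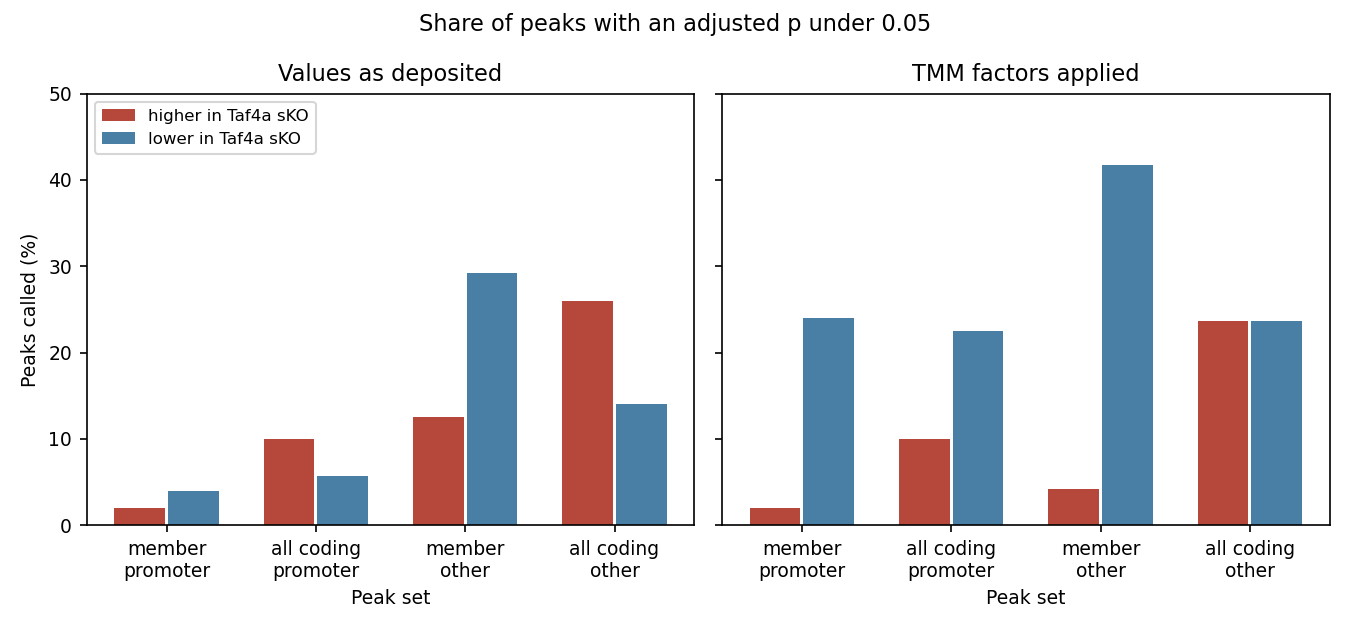
Percent of peaks called higher (red) and lower (blue) in Taf4a sKO MuSCs by limma at an adjusted p under 0.05, for member and all protein-coding promoter and other peaks, with deposited values (left) and after TMM factors (right). Among member other peaks the lower share is 29.2% as deposited and 41.7% with TMM factors, and among member promoters 4% and 24%.

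The Mediator head contacts Pol II and the general factors. Its 6 genes with a peak had 1 promoter peak each and log2 fold changes from -0.22 to 0.19. None was called by limma, also none at an unadjusted p under 0.05 or with voom weights, and 1 was called lower with TMM factors, at Med17. Of the 12049 promoter peaks of all coding genes, limma called 15.7%, and 2542 had an unadjusted p under 0.05. Voom weights called 1902 of them, and TMM factors called 22.5% lower. With 6 peaks, the head counts are near these shares. The head promoter of highest value was that of Med22, shared with the divergent Rpl7a, with values of 2524, 2193 and 2679 in control and 2669, 2487 and 2479 in Taf4a sKO MuSCs. The groups overlapped (log2 fold change 0.050 ± 0.10, adjusted p = 0.73, limma).

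The Mediator middle module, which includes the nuclear receptor contact Med1, held the largest fall among the annotated peaks. Med9, a small middle subunit, had 2 peaks that moved in opposite directions. The intronic peak, 5156 bp into the gene (chr11:59953206-59953518), had values of 61, 55 and 71 in control and 7, 5 and 10 in Taf4a sKO libraries. All Taf4a sKO values were far under the lowest control, and dividing by the depth factors gives about 5, 4 and 8 reads behind them. The log2 fold change was -2.96 ± 0.35 (adjusted p = 5.1e-07, limma), and the mean went from 62.3 ± 8.1 to 7.3 ± 2.5 (SD, n = 3). The Med9 promoter (chr11:59947644-59948636) had 1282, 1144 and 1396 in control and 1610, 1547 and 1568 in Taf4a sKO libraries. Each Taf4a sKO value was above each control value, and the peak was called higher (log2 fold change 0.31 ± 0.11, adjusted p = 0.021, limma). That call was lost when any of 5 single libraries was left out (adjusted p up to 0.077).

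Med31, one of the most conserved Mediator subunits, had no promoter peak in the set, and both its peaks lay upstream. The one 9539 bp before the gene (chr11:72224969-72225292) had values of 139, 152 and 152 in control and 104, 106 and 112 in Taf4a sKO libraries, without overlap. It was called lower (log2 fold change -0.46 ± 0.17, adjusted p = 0.03, limma), but not when any of 4 single libraries was left out (adjusted p up to 0.086). Among the 7 middle promoters the highest in value was Med19, which encodes a subunit that anchors Mediator to Pol II and shares its promoter peak with Tmx2. Its values of 2865, 2517 and 3280 in control overlapped those of 3143, 2845 and 2917 in Taf4a sKO MuSCs (log2 fold change 0.047, adjusted p = 0.76, limma). The single Med10 peak, 7676 bp from the annotated start, lies 157 bp from the start of another Med10 transcript in GENCODE, and the Med21 peak 8366 bp upstream lies 416 bp from the start of Tm7sf3. These peaks bear on a promoter, although the distance rule counts them as other peaks, and neither was called on the deposited values, while the Med10 peak was called lower with TMM factors (adjusted p = 0.012).

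Med14, the scaffold that joins the Mediator modules, had a promoter peak with 2378, 2266 and 2764 in control and 2803, 2514 and 2761 in Taf4a sKO libraries, which overlapped (log2 fold change 0.13, adjusted p = 0.34, limma). A peak 9952 bp upstream (chrX:12771665-12772385) had 147, 155 and 155 in control and 208, 203 and 194 in Taf4a sKO libraries. The groups were apart, and the peak was called higher (log2 fold change 0.40 ± 0.15, adjusted p = 0.035, limma). With TMM factors its adjusted p was 0.075, and leaving out any of 5 single libraries gave up to 0.11.

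The Mediator tail receives signals from DNA-bound activators, and 1 of its 14 peaks was called, or 3 with TMM factors. None of its 8 promoters and 1 of its 6 other peaks was called, or 1 and 2 with TMM factors. For all coding genes the shares were 15.7% of promoter and 40% of other peaks, or 32.5% and 47.4% with TMM factors. Med16 encodes a tail subunit, and an intronic peak 7822 bp into the gene (chr10:79900980-79901222) had values of 67, 42 and 84 in control and 15, 11 and 19 in Taf4a sKO libraries. The lowest control was above the highest Taf4a sKO value, although the controls varied widely. The fall was 2.01 on the log2 scale (limma, SE 0.32, adjusted p = 2.4e-05), from a mean of 64.3 ± 21.1 to 15.0 ± 4.0 (SD, n = 3). The promoter of the same gene (chr10:79908184-79909523), the highest of the 8 tail promoters, had 2469, 2184 and 2833 in control and 2639, 2434 and 2484 in Taf4a sKO libraries, with full overlap (log2 fold change 0.021, adjusted p = 0.89, limma).

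Med25, a tail subunit contacted by several activators, was one of the 2 genes with 3 peaks. None of them was called by limma on the deposited values. The promoter had 1521, 1291 and 1365 in control and 1338, 1295 and 1290 in Taf4a sKO libraries (adjusted p = 0.54), and with TMM factors it was called lower (log2 fold change -0.20, adjusted p = 0.043). Intronic peaks 3932 and 6602 bp into the gene had adjusted p-values of 0.34 and 0.65. A Med15 peak 10285 bp from the annotated start lies 291 bp from the start of another transcript of that gene, while the small peak counted as its promoter is not near a start in GENCODE's basic set.

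The kinase module, a reversible brake on the binding of Mediator to Pol II, had 4 promoters, of which 1 was called. Of all coding promoters 15.7% were called, so with 4 promoters this count is near that share. Med12l, a paralogue of Med12, had 1268, 1359 and 1393 at its promoter (chr3:59005419-59007351) in control and 1099, 1051 and 965 in Taf4a sKO libraries. The groups did not overlap, and the peak was called lower (log2 fold change -0.37 ± 0.11, adjusted p = 0.0067, limma). The mean was 1340 ± 64.6 in control and 1038 ± 67.9 in Taf4a sKO MuSCs (SD, n = 3), and without Taf4a sKO 3 the adjusted p was 0.072. The Med13l promoter, the highest of the module, had 2577, 2618 and 3120 in control and 3099, 3104 and 3018 in Taf4a sKO libraries, which overlapped through control 3 (log2 fold change 0.15, adjusted p = 0.24, limma). Without control 3 it was called higher (adjusted p = 0.0091).

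Among Pol II genes, the promoters showed no called difference and 2 peaks within or behind the genes went opposite ways. The 9 promoter peaks of subunit genes had log2 fold changes from -0.23 to 0.23, and limma called none, also none at an unadjusted p under 0.05 or with voom weights. TMM factors called 5 of these 9 lower, at Polr2a, Polr2c, Polr2h, Polr2j and Polr2k. Among all coding promoters 15.7% were called on the deposited values, and 22.5% were called lower with TMM factors. Of these 12049 promoters, 2542 had an unadjusted p under 0.05 by limma, and 1902 were called with voom weights. Polr2a encodes the largest, catalytic subunit with the C-terminal repeat domain. Its promoter (chr11:69757983-69759772) had 5616, 4783 and 6356 in control and 5223, 4644 and 4406 in Taf4a sKO libraries. The groups overlapped through control 2, with a log2 fold change of -0.23 ± 0.11 (adjusted p = 0.1, limma), and without control 2 the adjusted p was 0.012.

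An intronic Polr2a peak 5760 bp into the gene (chr11:69752746-69753008) had 58, 51 and 63 in control and 121, 114 and 114 in Taf4a sKO libraries. All Taf4a sKO values were far above control, and it was the only member peak gained by the fold threshold (log2 fold change 1.01 ± 0.19, adjusted p = 0.00019, limma). Its log2 ratio of group means, 1.01, lay just inside the threshold, and it fell under it with TMM factors and without control 2 or Taf4a sKO 1. Polr2e encodes RPB5, a subunit shared by all 3 nuclear RNA polymerases. A peak 5715 bp from its start, behind the gene's end (chr10:80033926-80034234), had 89, 72 and 106 in control and 49, 36 and 36 in Taf4a sKO libraries. The groups were apart, and the log2 fold change was -1.12 ± 0.23 (adjusted p = 0.00042, limma). Polr2m, which encodes a protein that associates with Pol II and is no core subunit, had 984, 904 and 1073 at its promoter in control and 1128, 1091 and 1112 in Taf4a sKO libraries, without overlap but not called (log2 fold change 0.17, adjusted p = 0.21, limma).

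The general factors held their clearest fall at TFIIA, which stabilises TFIID on the promoter. Gtf2a1 encodes the precursor of its 2 larger subunits, and both its peaks inside the gene were called lower while its promoter was not. The first, 2083 bp into the gene in an intron (chr12:91588203-91588604), had 1193, 1059 and 1169 in control and 573, 523 and 511 in Taf4a sKO libraries. The highest Taf4a sKO value was far under the lowest control, and this was the most strongly covered of the lost peaks. The mean (± SD, n = 3) went from 1140 ± 71.5 to 535.7 ± 32.9, and the log2 fold change was -1.09 ± 0.11 (adjusted p = 1.2e-07, limma).

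The second Gtf2a1 peak, 8595 bp into the gene (chr12:91581769-91582014), had 108, 109 and 132 in control and 64, 63 and 76 in Taf4a sKO libraries. It was called lower without overlap (log2 fold change -0.77 ± 0.19, adjusted p = 0.0022, limma) and did not reach the fold threshold. The Gtf2a1 promoter (chr12:91589158-91591104) had 5175, 4514 and 5754 in control and 5652, 5140 and 5133 in Taf4a sKO libraries. These groups overlapped (log2 fold change 0.050 ± 0.10, adjusted p = 0.73, limma). Per 100 bp of peak, the level of the first intronic peak was 284 ± 17.8 in control, near the 264 ± 31.9 of the promoter, and 133 ± 8.2 in Taf4a sKO MuSCs, where the promoter had 273 ± 15.3 (SD, n = 3).

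Gtf2b encodes TFIIB, which bridges the TATA-binding protein and Pol II. Its promoter (chr3:142764750-142765738) had 1357, 1251 and 1446 in control and 1116, 1072 and 1112 in Taf4a sKO libraries. All Taf4a sKO values lay below control, and the peak was called lower (log2 fold change -0.29 ± 0.10, adjusted p = 0.026, limma), but not when any of 4 single libraries was left out (adjusted p up to 0.11). The promoters of Gtf2e2, a TFIIE subunit, and Gtf2f2, a TFIIF subunit, had log2 fold changes of 0.067 (adjusted p = 0.63) and -0.059 (adjusted p = 0.72, limma).

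TFIIH joins transcription with nucleotide excision repair, and none of its 6 promoters was called, also none at an unadjusted p under 0.05 or with voom weights, and 1 was called lower with TMM factors, at Ercc3, which encodes the XPB translocase. Of the 12049 promoter peaks of all coding genes, limma called 15.7%, and 2542 had an unadjusted p under 0.05. Voom weights called 1902 of them, and TMM factors called 22.5% lower. With 6 promoters, the TFIIH counts are near these shares. The highest TFIIH promoter was that of Gtf2h5, the smallest TFIIH subunit, shared with Serac1, with 1468, 1417 and 1659 in control and 1571, 1455 and 1510 in Taf4a sKO libraries (log2 fold change 0.00, adjusted p = 1, limma). Ercc2 encodes the XPD helicase. An intronic Ercc2 peak 6832 bp into the gene (chr7:19388678-19389005) had 53, 47 and 42 in control and 79, 66 and 68 in Taf4a sKO libraries. The groups were apart, and the peak was called higher (log2 fold change 0.58 ± 0.22, adjusted p = 0.039, limma), with an adjusted p of 0.076 after TMM factors and of up to 0.14 when any of 5 single libraries was left out.

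Gtf2i, Gtf2ird1 and Gtf2ird2 carry the Gtf2 prefix but encode sequence-specific regulators of the TFII-I family, not parts of the basal machinery. A peak 9801 bp upstream of Gtf2ird1 (chr5:134466364-134466670) had 101, 122 and 117 in control and 28, 25 and 25 in Taf4a sKO libraries. The groups were wide apart, with a mean of 113.3 ± 11 in control and 26.0 ± 1.7 in Taf4a sKO MuSCs (SD, n = 3), and the log2 fold change was -2.08 ± 0.22 (adjusted p = 1.8e-07, limma). The Gtf2i promoter, the highest of the family, had 3445, 3114 and 3921 against 3736, 3393 and 3286, with overlap (log2 fold change -0.005, adjusted p = 0.98, limma). With each of the 4 other scalings it was called lower, for example with TMM factors (log2 fold change -0.12, adjusted p = 0.044).

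**Figure D4:**
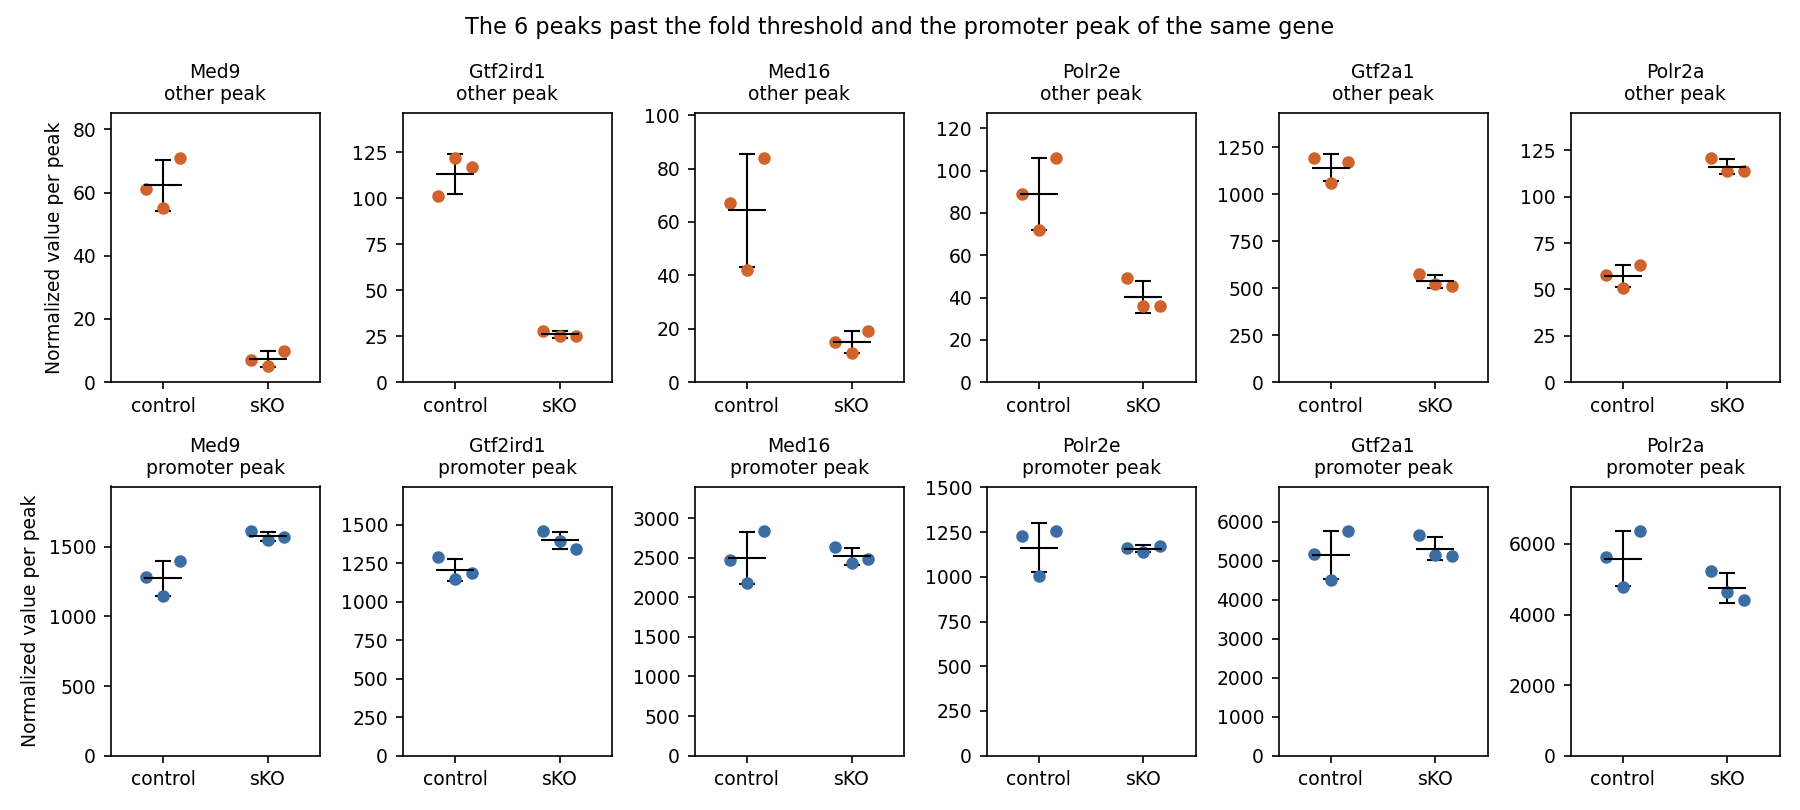
Normalized value per peak in each library (points) with the group mean and SD (bars, n = 3) for the 6 member peaks past the fold threshold (top, orange) and the promoter peak of the same gene (bottom, blue), each on its own linear axis from 0. In the top row the groups are apart in each panel, for example 61, 55 and 71 against 7, 5 and 10 at Med9.

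Whether a called other peak changed apart from its own promoter was examined for 9 pairs in 8 genes, by the difference of log2(value + 1) between both peaks, which a single factor per library leaves nearly unchanged, unlike quantile normalization. The difference between Taf4a sKO and control was -3.27 at Med9, -2.29 at Gtf2ird1, -2.03 at Med16, -1.14 and -0.82 at the 2 peaks of Gtf2a1, -1.12 at Polr2e, 0.27 at Med14, 0.61 at Ercc2 and 1.24 at Polr2a. In each pair the groups did not overlap, and the two-sided exact permutation test gave p = 0.1, the smallest that 3 against 3 libraries allow (Benjamini-Hochberg adjusted p = 0.1 over the 9 pairs). The other peak of each pair was chosen because it was called, so this separation is a description.

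**Figure D5:**
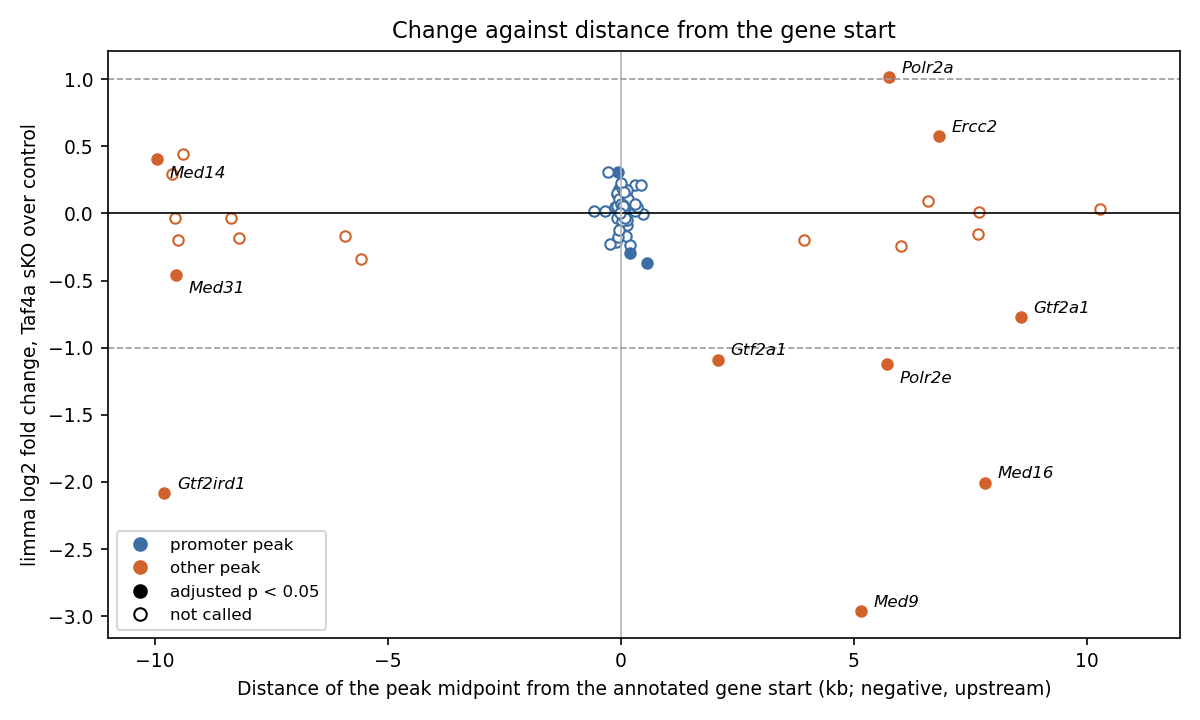
limma log2 fold change against the distance of the peak midpoint from the annotated gene start, in kb, for the 74 member peaks, with promoter peaks in blue, other peaks in orange and filled symbols for an adjusted p under 0.05. Promoter peaks lie in a narrow band around 0, and called other peaks lie on both sides of the start, from Med9 at -2.96 to Polr2a at 1.01.

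The 2 classes differed in more than position. The median promoter peak was 1014 bp wide with a value of 128 per 100 bp, and the median other peak was 330 bp wide with 35.2 per 100 bp. In all coding genes the corresponding values were 1116 bp with 109 and 526 bp with 41.5. GC content had a median of 57.9% in member promoters and 54% in the other peaks. The median standard error of the log2 fold change was 0.11 at member promoters and 0.19 at the other peaks, so small differences were harder to detect in the latter. Per 100 bp, the highest promoter level in control was at Polr2a (312 ± 44), followed by Med19 (286 ± 37.9) and Gtf2a1 (264 ± 31.9; SD, n = 3), and these neighbours were within their spread of each other. The lowest was 28.3 ± 8.3 at the Med15 peak, followed by Gtf2f2 with 57.8 ± 3.0.

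RefSeq start sites (GRCm38.p6) were found for 45 of the 54 genes, with 53 promoters of 250 bases before to 50 after the start. The GC box letters GGGCGG were in 58.5% of them and in 35.7% of all 32851 RefSeq promoters, the Ets letters CCGGAAG in 30.2% against 8.9% and the Nrf1 letters GCATGCGC in 11.3% against 2.7%. CCAAT was in 34% against 37.4% and TATAAA in 11.3% against 13.6%, on either strand. All RefSeq promoters include those without a peak here, and Ets and Nrf1 letters were not counted in peak windows. Windows of some genes overlap, so a site can count more than once, as the Nrf1 letters of Med15 do. Among promoter peaks the GC box letters were near background, in 70% of the 300-base windows centred on member promoter peaks. The share was 64% for all coding promoter peaks. The 250 bases before the start are shown for the 3 genes whose promoter peak was called and for Polr2a, in the direction of transcription, with matches to these 5 motifs in capitals.
Med9 promoter, chr11:59947964-59948213, plus strand: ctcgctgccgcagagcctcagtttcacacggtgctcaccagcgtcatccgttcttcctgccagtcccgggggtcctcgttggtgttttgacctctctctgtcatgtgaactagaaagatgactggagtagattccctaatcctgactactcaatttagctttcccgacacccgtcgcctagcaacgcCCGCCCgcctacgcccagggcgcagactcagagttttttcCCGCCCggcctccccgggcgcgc
Med12l promoter, chr3:59006728-59006977, plus strand: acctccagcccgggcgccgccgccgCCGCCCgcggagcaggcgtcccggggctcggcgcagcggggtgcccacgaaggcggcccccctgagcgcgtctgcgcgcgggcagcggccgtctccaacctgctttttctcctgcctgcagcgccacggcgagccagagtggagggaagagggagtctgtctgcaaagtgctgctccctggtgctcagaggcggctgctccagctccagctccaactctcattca
Gtf2b promoter, chr3:142764997-142765246, plus strand: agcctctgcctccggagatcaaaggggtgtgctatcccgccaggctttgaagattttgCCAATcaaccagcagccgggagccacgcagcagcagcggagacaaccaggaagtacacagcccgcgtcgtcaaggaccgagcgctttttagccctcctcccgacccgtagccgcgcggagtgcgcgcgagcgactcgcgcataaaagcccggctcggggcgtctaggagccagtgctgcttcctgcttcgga
Polr2a promoter, chr11:69758634-69758883, minus strand: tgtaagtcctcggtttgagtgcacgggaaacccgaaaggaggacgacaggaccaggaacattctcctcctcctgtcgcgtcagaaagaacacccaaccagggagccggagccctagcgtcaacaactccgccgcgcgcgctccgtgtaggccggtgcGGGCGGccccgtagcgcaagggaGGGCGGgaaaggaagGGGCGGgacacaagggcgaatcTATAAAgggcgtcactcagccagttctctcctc

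The Polr2a sequence held 3 GC boxes and a TATA box, and that of Med9 had 2 GC boxes. Among the pair called lower, Gtf2b had 1 CCAAT box and Med12l 1 GC box. None of the 4 had the Ets or Nrf1 letters in this stretch.

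Partners of these complexes were read from lists that hold genes outside the rule. Of 7 peaks of 6 genes for the cyclins and kinases of Mediator and TFIIH, 1 was called higher and none lower. This was the promoter of Ccnh, the cyclin of the TFIIH kinase, with 1135, 1036 and 1173 in control and 1479, 1311 and 1422 in Taf4a sKO libraries, without overlap (log2 fold change 0.33 ± 0.11, adjusted p = 0.013, limma), and it is named because it was the one called. TATA-binding proteins had 1 peak, at Tbp, which was not called. Of 31 peaks of 22 pausing and elongation genes, limma called 1 lower and none higher, a peak annotated to Ctr9, a subunit of the PAF1 complex, 8135 bp from its start. Its values were 151, 157 and 171 in control and 108, 82 and 133 in Taf4a sKO libraries, without overlap (log2 fold change -0.59 ± 0.18, adjusted p = 0.012, limma). In total 1 of 25 partner promoters and 1 of 14 other partner peaks were called (4% and 7.14%), against 15.7% of all coding promoter peaks and 40% of the other coding peaks. With TMM factors these counts were 12 of 25 (48%, 11 of them lower) and 4 of 14 (28.6%), against 32.5% and 47.4%, so the promoter share went from under to over that of all coding genes with the scaling. No partner peak passed the fold threshold. Among all coding promoters 0.805% were gained and 0.905% lost by it, and among the other coding peaks 5.34% and 4.59%.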

How the data were processed

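ATAC-seq libraries of sorted MuSCs were compared, 3 of control and 3 of Taf4a sKO mice, grouped by their labels. The authors trimmed reads with Trimmomatic 0.39, aligned them with STAR 2.7.11b to mm10, removed duplicates with Picard 3.1.1, called peaks with MACS in each library without input and counted reads in the unified peaks. A shift for the Tn5 insertion is not described. The deposited values are a score per peak: the authors multiplied read counts by a depth factor and rounded them. Raw counts are not used here, so count tests were not run. The factors read from whole numbers missing among the values, with at most 2 mismatches in a library, were 1.39, 1.00 and 1.23 for control and 1.39, 1.37 and 1.29 for Taf4a sKO libraries, and only approximate reads follow from them. Precision rests on 3 libraries per group.

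limma 3.58.1 (R 4.3.3) with trend and robust moderation was fitted to log2(value + 1) over 75384 peaks. This scale understates the change of low peaks. Exact permutation tests were enumerated. Gene positions of all 54 genes equalled GENCODE vM21. Its full set of transcripts gave the places of member peaks, and its basic set gave start sites. Sequences came from the GRCm38 assembly and RefSeq. The members, role groups and gene lists were chosen with earlier results of these data known. Peaks named were those past the fold threshold, up to 3 called per role and direction, the highest promoter per role and the genes with most peaks; partner genes were to be named when called with a log2 fold change of at least 0.5, and Ccnh and Tbp were named outside this rule, after their values were seen. Alternatives were other scalings, filters, pseudocounts, variance models and thresholds, a replicate block and each library left out. Some results of the marker and comparison lists are not reported here.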

Additional observations from a re-analysis of the deposited data

How the results depend on the processing

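Of the 13 called member peaks, 7 were called in the same direction under each alternative in which they were tested, namely both Gtf2a1 peaks inside the gene and the other peaks of Gtf2ird1, Med9, Med16, Polr2e and Polr2a. The 4 peaks called higher became 2 with median-of-ratios factors, 2 with TMM factors and 2 with equal total signal, and 1 at an adjusted p under 0.01. They ranged from 1 to 14 with single libraries left out (14 without control 3, 2 without control 1 and 1 without each of the others). Of all peaks, 28% were called higher with all libraries and 37.8% without control 3. That share was 21.3% to 25% without any other single library. The 9 called lower became 22 with median-of-ratios factors, 22 with TMM factors, 33 with equal total signal and 34 after quantile normalization. In that order, the share called lower went from 12.2% of member peaks to 29.7%, 29.7%, 44.6% and 45.9%. Among all peaks it went from 13.9% to 22.5%, 22.3%, 25.8% and 25.1%. Among all coding promoters it went from 5.67% to 23.1%, 22.5%, 33.5% and 35%. The single gained peak fell under the threshold (0 gained) with a pseudocount of 10, median-of-ratios factors (0), TMM factors (0), equal total signal (0), quantile normalization (0) and, of the libraries left out, without control 2 or Taf4a sKO 1 (0 to 1). The 5 lost peaks became 3 at a mean above 50, which leaves out Med9 and Med16. They became 4 with a pseudocount of 10 and 4 without control 3, where limma's estimate at the Polr2e peak was -0.972 and -0.987. The median log2 fold change of 0.014 became -0.099 with median-of-ratios factors, -0.098 with TMM factors, -0.134 with equal total signal and -0.134 after quantile normalization. It ranged from -0.055 (without control 2) to 0.090 (without control 3) with single libraries left out. These scalings also shift all peaks.

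Promoters near 0 changed sign with the scaling. With median-of-ratios factors, TMM factors, equal total signal and quantile normalization in that order, the log2 fold change was -0.063, -0.062, -0.098 and -0.074 at Med22, -0.066, -0.065, -0.101 and -0.071 at Med19, -0.092, -0.091, -0.127 and -0.102 at Med16, -0.063, -0.062, -0.098 and -0.047 at Gtf2a1, -0.046, -0.045, -0.082 and -0.061 at Gtf2e2, and -0.113, -0.112, -0.148 and -0.148 at Gtf2h5. Med14 reached -0.020 with equal total signal and Polr2m -0.019 after quantile normalization. With single libraries left out, the range was -0.032 to 0.112 at Med22, -0.048 to 0.143 at Med19, -0.071 to 0.116 at Med16, -0.084 to 0.082 at Gtf2i, -0.041 to 0.134 at Gtf2a1 and -0.046 to 0.067 at Gtf2h5. Of these promoters, Med19 and Gtf2a1 with equal total signal, and Med16 and Gtf2h5 with equal total signal and quantile normalization, were called lower. The Gtf2i and Polr2a promoters were called lower with all 4 other scalings, and that of Gtf2f2 after quantile normalization. Without control 3, the promoters of Med13l, Med14 and Polr2m were called higher. The cause was not tested.

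Nothing states whether replicate numbers pair the libraries. Deviations of same-numbered libraries correlated at 0.109, -0.117 and -0.029, and those of differently numbered ones at -0.119 to 0.151. Such correlations cannot decide whether libraries were prepared together. With the replicate block 5 member peaks were called higher and 9 lower, and the median stayed at 0.014. Counting promoters up to 500 bp gave 48 and up to 3000 bp 51 peaks instead of 50. Small values limit the lowest peaks, since the Med9 intronic peak rests on about 4 to 8 reads in a Taf4a sKO library.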

Other observations

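The deposited annotation reaches at most 10938 bp from a gene's start, so the long member genes hold peaks that it gives to no gene. Within the bodies of 9 of the 54 genes there were 32 such peaks. At an adjusted p under 0.05, limma called 3 of them higher and 13 lower (9.38% and 40.6%). Among all 40114 tested peaks without an annotated gene, the shares were 32.9% and 16%. The same gene bodies and those of 4 more member genes also held peaks that the annotation gives to another or an unnamed gene. With these there were 56 peaks in 13 genes, of which 9 were called higher and 19 lower (16.1% and 33.9%), so the split was less uneven, and the 24 added peaks gave 6 in each direction. These peaks share genes and libraries, and no test of the difference from other peaks was made. Most were in the genes of the kinase module. Of the 14 peaks in Med12l, 7 were called lower and none higher, and of the 22 in Med13l, 5 were called lower and 4 higher. The 3 peaks in Med24 were all called higher, and 1 of them passed the fold threshold. The annotation gives that peak (chr11:98708115-98709768) to Csf3. In Med12l, 5 of the 7 lower peaks were given to no gene, and the others to P2ry14.

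The following peaks were chosen after their values were seen. In Med13l, a peak at chr5:118589287-118589918 had 220, 207 and 190 in control and 76, 81 and 77 in Taf4a sKO libraries (log2 fold change -1.39 ± 0.17 (SE), adjusted p = 7.5e-07, limma), whereas one at chr5:118757527-118758194 had 68, 104 and 124 against 271, 175 and 192 (log2 fold change 1.12, adjusted p = 0.00043, limma). Both pairs of groups were apart. In Med12l, the peak at chr3:59120501-59121561 had 749, 798 and 1160 against 575, 506 and 454 (log2 fold change -0.80, adjusted p = 0.00033, limma), without overlap. A peak in Med27, which encodes a tail subunit, at chr2:29516050-29516450 had 128, 119 and 108 against 46, 16 and 28 (log2 fold change -2.06 ± 0.29 (SE), adjusted p = 2e-05, limma). Its promoter had 602, 572 and 611 against 562, 591 and 574, and these overlapped (adjusted p = 0.78, limma). The assignment of peaks inside a gene body to that gene is by position only.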
